A study of Mus musculus with 9 samples.

Results

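The genes described here are 38 mouse genes of the NRF2 pathway, of antioxidant defence and of ferroptosis, measured by RNA sequencing in liver. They were chosen by symbol from a written list that leaves out glutathione transferases and Abcc transporters. The members and the lists used below were chosen with earlier results of these data known, so shares set beside those of all genes only describe them. All 38 symbols were found among the 23420 genes of the deposited tables, and 37 of them were among the 13020 genes with enough reads to test. The remaining member, Slc7a11, had too few reads.

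NRF2, encoded by Nfe2l2, is a transcription factor that KEAP1 holds in the cytoplasm and hands to the proteasome. Oxidants and electrophiles modify KEAP1, and NRF2 then reaches the nucleus, where it binds antioxidant response elements beside genes for glutathione synthesis, thioredoxin recycling, NADPH supply and quinone reduction. Ferroptosis is an iron-dependent form of cell death driven by lipid peroxides, which GPX4 reduces at the expense of glutathione. The liver stores iron, and iron that is not held in ferritin promotes the formation of radicals from peroxide.

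The mice were wild-type C57BL/6 males on a soy-free AIN-93G feed that differed in iron content. The low-iron feed held 2.5 mg iron per kg, the sufficient feed 37.5 mg per kg and the high-iron feed 1000 mg per kg. Each diet had 3 mice, which started on it at 5 weeks of age, ate it for 50 days and gave their livers at 12 weeks. Hemojuvelin knockout mice, which the protocol also names, are not analysed here. Every group is wild type and no transgene is involved, so the 3 groups differ by the labels in feed alone. Each library is named by its diet and its title number, that is low-iron replicates 1, 5 and 9, sufficient-iron replicates 2, 6 and 10, and high-iron replicates 4, 8 and 12.

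Gene reads ranged from 22 M to 33.8 M per library, of which the 38 genes took between 129982 and 337695 reads, or 0.591% to 1.18%. The ribosomal RNA gene Rn45s held 43.7% of gene reads in low-iron replicate 1 and 40.5% in high-iron replicate 12, and at most 23.8% elsewhere. The libraries also differed in how a gene's level moved with the length of its transcript. Across 12190 genes with a known length, Spearman's rho between length and a gene's log2 CPM (CPM being read counts relative to the scaled library size) relative to the mean of the 9 libraries was -0.38 in low-iron replicate 1 and -0.386 in high-iron replicate 8. It was 0.218, 0.342 and 0.198 in the sufficient-iron libraries. Negative values mean that genes with short transcripts read relatively high, and this touches the short members named below. Hepatocyte markers summed to between 48500 and 73700 CPM with none at 0, as the label liver implies. The haemoglobin genes Hba-a1, Hba-a2, Hbb-b1 and Hbb-b2 were at 0 reads in all 9 libraries. Reads shared by several genes were not counted, so this does not show that haemoglobin RNA was absent.

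Promoter sequences were read for the members to show where letters resembling an antioxidant response element lie. RefSeq windows (GRCm38.p6) held 35 of the 38 members, and in each the 250 bases before the transcription start were searched on both strands for TGACNNNGC, the core of the element, and for TGACTCA, the AP-1 type core that small MAF and BACH proteins can share. TGACTCAGC matches both. The first motif was found in 8 of 35 members (22.9%), against 11.5% of 27025 genes. The second was found in 5 of 35 members (14.3%), against 5.16% of genes. The 4 promoters printed here belong to G6pdx and Srxn1, whose levels differed most between high-iron and low-iron livers among the members with a match, and to Prdx1 and Htatip2, which hold the longer match TGACTCAGC. Capitals mark a match on either strand, all sequences run 5′ to 3′ towards the start site, and a match is a run of letters, not a shown binding site. The window of G6pdx is chrX:74428881-74429130 (minus strand), that of Srxn1 chr2:152105274-152105523 (plus strand), that of Prdx1 chr4:116685349-116685598 (plus strand) and that of Htatip2 chr7:49759262-49759511 (plus strand).
G6pdx: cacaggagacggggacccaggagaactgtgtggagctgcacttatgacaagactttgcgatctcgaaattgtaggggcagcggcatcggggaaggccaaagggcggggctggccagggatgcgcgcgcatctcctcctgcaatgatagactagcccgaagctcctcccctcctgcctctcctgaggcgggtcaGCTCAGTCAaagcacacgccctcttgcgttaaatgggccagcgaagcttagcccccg
Srxn1: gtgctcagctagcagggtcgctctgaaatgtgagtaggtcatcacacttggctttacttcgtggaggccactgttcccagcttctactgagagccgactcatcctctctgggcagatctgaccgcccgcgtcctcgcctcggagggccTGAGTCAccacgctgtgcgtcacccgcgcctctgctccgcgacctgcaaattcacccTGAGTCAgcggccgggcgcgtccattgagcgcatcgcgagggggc
Prdx1: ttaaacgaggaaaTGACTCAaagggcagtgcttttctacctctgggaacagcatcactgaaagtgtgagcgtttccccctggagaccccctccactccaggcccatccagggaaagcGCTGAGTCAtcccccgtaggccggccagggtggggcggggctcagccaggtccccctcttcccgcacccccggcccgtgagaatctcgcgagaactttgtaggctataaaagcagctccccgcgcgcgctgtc
Htatip2: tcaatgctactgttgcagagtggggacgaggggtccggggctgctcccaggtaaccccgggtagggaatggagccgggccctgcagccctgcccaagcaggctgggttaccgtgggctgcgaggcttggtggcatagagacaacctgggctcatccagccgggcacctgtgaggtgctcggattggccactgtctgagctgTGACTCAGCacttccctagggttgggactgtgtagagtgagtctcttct
The G6pdx match begins 57 bases before the start, the Srxn1 matches 102 and 45 bases before it, and the Htatip2 match 49 bases before it. The longer Prdx1 match begins 133 bases before the start, and a separate TGACTCA lies 237 bases before it. The windows of Nqo1 and Me1 held neither run of letters, which says only that these letters are not in these 250 bases.

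The members covered a wide range of abundance in these livers. On a scale that allows genes to be compared, mean CPM per kilobase of transcript over the 9 libraries, the cytosolic superoxide dismutase gene Sod1 stood highest at 928. The catalase gene Cat followed closely at 905, and the glutathione peroxidase gene Gpx1 at 669. In sufficient iron alone the order was reversed, with Cat at 779 and Sod1 at 753, and low-iron replicate 1 gave the highest Sod1 value. Prdx1 (301), Me1 (250) and Gpx4 (246) came next. At the lower end stood Nqo1 (4.72), Gpx3 (2.46) and Cbr3 (0.646), and Slc7a11 was lowest at 0.013. In plain CPM, 19 of the 37 tested members averaged above 100 and 3 below 10. The spread between mice of one diet was ordinary, with a median SD of 0.213 on the log2 CPM scale among the members and 0.223 among all tested genes.

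Across the 3 diets none of these genes passed the test over all genes. Short of that threshold, the 5 members listed under NADPH supply read higher in every high-iron liver than in any sufficient-iron liver, as did Nqo1. G6pdx led them at 2.10-fold. In all, 9 members were higher in this way, Gsr, Cat and Lpcat3 included, beside 8.99% of all genes. Among 11 other NADPH-linked enzymes outside the members, 5 had a positive log2 fold change in that comparison and the median was -0.01. Cat, Sod2, Tkt and Taldo1 read higher, and Acsl4 lower, in every low-iron liver than in any sufficient-iron liver. They were among 11 members wholly higher, beside 8.81% of all genes, and 1 wholly lower, beside 7.83%. The regulators Nfe2l2 and Keap1, the glutathione synthesis gene Gclc and the ferroptosis suppressor gene Aifm2 overlapped between all diets. In the bulk tissue measured, fewer cells of a type and less RNA per cell cannot be told apart.

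In edgeR's quasi-likelihood test with Benjamini-Hochberg adjustment over 13020 genes (threshold 0.05), 0 of 37 members were called in any of the 3 pairwise comparisons, in the test of all 3 diets together or in the trend with dietary iron. The share of all genes called was 0.215% for high against sufficient iron, 0% for low against sufficient iron, 0.507% for high against low iron, 0.215% for the 3-diet test and 0.307% for the trend, so few calls were made anywhere. At an unadjusted p under 0.05, 6 members differed between high and sufficient iron (5 higher and 1 lower), beside 9.28% of all genes (4.16% higher and 5.12% lower). Between low and sufficient iron 9 members did (8 higher and 1 lower), beside 11.2% of all genes (5.79% higher and 5.41% lower), and between high and low iron 7 did (6 higher and 1 lower), beside 9.65% (4.22% higher and 5.44% lower). The 3-diet test gave 9 members at that level (10.7% of all genes) and the trend gave 7, of which 6 were higher and 1 lower with more iron (8.73% of all genes, 3.73% higher and 4.99% lower). Other tools made a few member calls. DESeq2 called G6pdx for high against sufficient iron, Cat and Sod2 for low against sufficient iron, and Acsl4 and G6pdx for high against low iron. Limma-voom called 0 members in every comparison, with 6, 9 and 6 at an unadjusted p under 0.05, and with sample quality weights it called Nqo1 for high against sufficient iron and Acsl4, G6pdx and Srxn1 for high against low iron.

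The 3 high-iron and the 3 sufficient-iron libraries did not overlap in 9 members, all higher in high iron, where 8.99% of all genes were higher in this way and 8.85% lower. Low iron lay wholly above sufficient iron in 11 members (8.81% of all genes) and wholly below it in 1 (7.83%). High iron lay wholly above low iron in 7 members (7.59%) and wholly below it in 3 (8.15%). The median log2 fold change of the 37 members was 0.18 for high against sufficient iron, with 27 of them positive, beside -0.01 over all genes. Leaving out sufficient-iron replicate 10 brought it to 0.10. It was 0.08 for low against sufficient iron, with 24 positive, and -0.01 for high against low iron, with 18 positive, and the median over all genes lay within 0.01 of 0 in both. The low-iron median was 0.02 without low-iron replicate 1, 0.145 and 0.137 without low-iron replicates 5 and 9, and 0.18 without sufficient-iron replicate 6. The median for high against low iron turned positive without low-iron replicate 1 (0.08), low-iron replicate 5 (0.01) or high-iron replicate 12 (0.03). Both comparisons with the sufficient diet use the same 3 sufficient-iron livers, so a liver that read low there raises both. Sufficient-iron replicate 6 stood apart among the members, with 56.6 CPM of Gss and 1.38 CPM of Cbr3 against at most 29.6 and 0.437 CPM in the other sufficient-iron livers. Stellate cell markers summed to 439 CPM in it and to between 183 and 315 CPM in the other 8 libraries, and their part in its values was not tested. Without it, 11 members differed between high and sufficient iron at an unadjusted p under 0.05, and without high-iron replicate 4 only 3 did. Without low-iron replicate 1, 4 members differed between low and sufficient iron at that level in place of 9. Without high-iron replicate 4, 2 differed between high and low iron in place of 7.

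**Figure D1:**
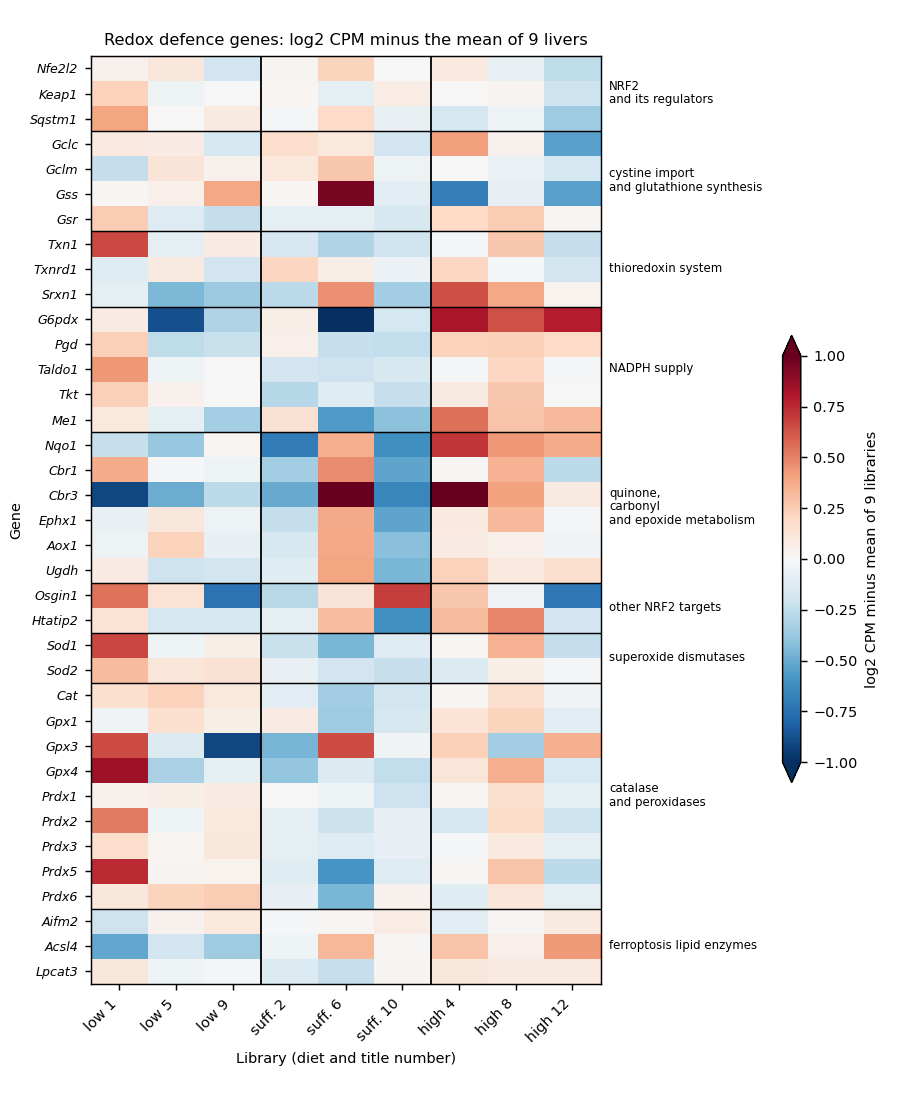
Each row is 1 of the 37 tested members, grouped by role, and each column 1 of the 9 liver libraries; colour gives log2 CPM minus the gene's mean over the 9 libraries, on a scale cut at -1 and 1. The NADPH supply genes read above their mean in the 3 high-iron livers, apart from Taldo1 and Tkt near the mean in some, and sufficient-iron replicate 6 and low-iron replicate 1 each hold several strongly coloured cells.

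Regulators of the pathway came first by role, and none of the 3 differed between high and sufficient iron or between low and sufficient iron at an unadjusted p under 0.05. Nfe2l2, the NRF2 gene, stood at 76.4, 80.3 and 64.8 CPM in low iron, 75.5, 86.6 and 74.5 CPM in sufficient iron and 79.2, 70.4 and 62.2 CPM in high iron. The 3 diets overlapped, and the log2 fold change was -0.16 ± 0.13 (SE) for high and -0.10 ± 0.13 for low against sufficient iron (edgeR, adjusted p = 0.696 and 0.758). Keap1, whose product marks NRF2 for degradation, stood at 47.5, 39.1 and 40.4 CPM in low iron, 41.0, 37.8 and 42.6 CPM in sufficient iron and 40.6, 41.2 and 35.0 CPM in high iron. Its log2 fold changes, -0.05 ± 0.11 for high and 0.06 ± 0.11 for low against sufficient iron, changed sign when some single libraries were left out. Sqstm1 encodes p62, which binds KEAP1 and delivers it to autophagy, and is itself an NRF2 target. Its level was 473, 358 and 381 CPM in low iron, 355, 410 and 342 CPM in sufficient iron and 317, 348 and 280 CPM in high iron. All 3 high-iron livers were below all 3 low-iron livers, a log2 fold change of -0.36 ± 0.14 that did not pass the threshold (edgeR, adjusted p = 0.427). Low-iron replicate 1 gave the highest value, and without it the fold change was -0.22. Among 14 partners, repressors and ligases of NRF2, 0 were called in any pairwise comparison. Of these, Bach1, a haem-sensing repressor at the same elements, had the lowest p for high against low iron, at 42.5, 47.2 and 52.6 CPM in high iron and 34.7, 39.2 and 36.1 CPM in low iron (log2 fold change 0.37, edgeR, adjusted p = 0.291).

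Of the 4 tested genes of cystine import and glutathione synthesis, 1 had a positive log2 fold change for high against sufficient iron and 1 for low against sufficient iron. Slc7a11, the cystine importer gene, was close to absent, with 0, 3 and 5 reads in low iron, 0, 13 and 6 in sufficient iron and 0, 2 and 5 in high iron, 34 reads in all. Its highest value was 0.299 CPM, and the libraries at 0 reads allow up to 0.234, 0.109 and 0.1 CPM, the worth of 3 reads there, counting error only. Gclc, the catalytic subunit of the enzyme that limits glutathione synthesis, stood at 372, 368 and 308 CPM in low iron, 392.3, 374 and 305 CPM in sufficient iron and 463, 358 and 238 CPM in high iron. The high-iron livers enclosed the whole range of the others, and the log2 fold change against sufficient iron was -0.02 ± 0.21 in high and -0.03 ± 0.21 in low iron. Gclm, the modifier subunit, ranged from 95.9 to 136 CPM without separation of the diets. Gss, which adds glycine in the final step, stood at 29.4, 30.2 and 38.2 CPM in low iron, 29.6, 56.6 and 27.2 CPM in sufficient iron and 18.2, 27.6 and 20.03 CPM in high iron. The high-iron livers were all below the low-iron livers but not below all sufficient-iron livers, and the log2 fold change against sufficient iron was -0.79 ± 0.27 (edgeR, adjusted p = 0.418). Without sufficient-iron replicate 6 the value was -0.37. Gsr, glutathione reductase, which regenerates glutathione with NADPH, ranged from 67.1 to 79.0 CPM in high iron and from 59.1 to 62.0 CPM in sufficient iron, without overlap, and from 56 to 78.9 CPM in low iron.

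Upstream of glutathione lie transsulfuration and cysteine supply. A list of 16 tested genes around these routes also took in genes outside them, such as Bhmt, so it does not measure cysteine supply. Of the 16, 14 had a negative log2 fold change for high against low iron. The whole list held 4 genes lower at an unadjusted p under 0.05, beside 5.44% of all genes, and 1 passed the adjusted threshold. The median was -0.24, beside -0.01 over all genes. Bhmt, which remethylates homocysteine with betaine, fell from 3887, 3740 and 3039 CPM in low iron to 1449, 1192 and 1522 CPM in high iron, with 2519, 1622 and 3309 CPM in sufficient iron (log2 fold change for high against low iron -1.36, edgeR, adjusted p = 0.0341). The adjusted p ranged up to 0.161 over the alternatives, and leaving out any 1 of the 6 low-iron and high-iron libraries ended the call. Cbs, the first enzyme of transsulfuration, was lower in every high-iron liver than in every low-iron liver (log2 fold change -0.66, edgeR, adjusted p = 0.0639). Hepatocyte markers moved beside this list, with all 8 tested markers negative for high against low iron, 0 called and a median of -0.37. For low against sufficient iron 7 of the 8 were positive, with 0 called and a median of 0.32. The markers summed to 65300 to 73700 CPM in low, 51400 to 72600 CPM in sufficient and 48500 to 57900 CPM in high iron. Their part in these differences and in those of the members was not tested.

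In the thioredoxin system, Txn1 and Srxn1 each separated 1 pair of diets and Txnrd1 none. Of all genes 16.6% separated low from sufficient iron, as Txn1 did, and 15.7% separated high from low iron, as Srxn1 did. Txn1, cytosolic thioredoxin, stood at 263, 157 and 176 CPM in low iron, 149, 135 and 145 CPM in sufficient iron and 166, 201 and 141 CPM in high iron. Every low-iron liver was above every sufficient-iron liver, with a log2 fold change of 0.47 ± 0.19 (edgeR, adjusted p = 0.446), and the value was 0.21 without low-iron replicate 1. Txnrd1, the reductase that recycles thioredoxin with NADPH, ranged from 116 to 153 CPM over all 9 livers with overlap between diets. Srxn1, sulfiredoxin, which repairs overoxidised peroxiredoxins, stood at 67.5, 52.6 and 55.9 CPM in low iron, 59.9, 98.7 and 56.4 CPM in sufficient iron and 112, 94.0 and 73.6 CPM in high iron. High iron was above low iron in every pair of livers (log2 fold change 0.67 ± 0.22, edgeR, adjusted p = 0.30), while sufficient-iron replicate 6 read among the high-iron livers. Srxn1 is the gene whose printed promoter holds a pair of TGACTCA matches on the opposite strand.

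All 5 genes listed under NADPH supply read higher in high iron than in sufficient iron without overlap, as did 8.99% of all genes. G6pdx, Pgd and Me1 encode enzymes that yield NADPH, whereas Tkt and Taldo1 belong to the non-oxidative part of the pentose phosphate pathway. Of the 5, 4 had an unadjusted p under 0.05, and 4.16% of all genes were higher at that level. The log2 fold changes of the 5 ran from 0.25 to 1.07, with a median of 0.36. Against low iron 4 of the 5 had a positive log2 fold change, 2 of them without overlap, beside 7.59% of all genes. For low against sufficient iron 4 of the 5 were positive. G6pdx, glucose-6-phosphate dehydrogenase, which opens the pentose phosphate pathway, stood at 24.5, 21.7 and 24.1 CPM in high iron, 14.5, 6.81 and 12.3 CPM in sufficient iron and 14.7, 7.54 and 11.3 CPM in low iron. Thus the 3 high-iron livers lay close together and above all others, while the remaining diets covered the same range. The log2 fold change was 1.07 ± 0.28 against sufficient iron (edgeR, adjusted p = 0.212) and 1.08 ± 0.28 against low iron (edgeR, adjusted p = 0.148), and -0.01 ± 0.28 for low against sufficient iron. Its 3-diet test gave the lowest adjusted p of all members, 0.163. Without sufficient-iron replicate 6, its lowest liver, the log2 fold change against sufficient iron was 0.81, and the adjusted p against low iron became 0.0495. The retrogene G6pd2, a close copy, had 0 reads in all libraries. Reads shared by both genes were not counted, so this does not show that G6pd2 RNA was absent, and such reads would be missing from G6pdx too.

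Me1, malic enzyme, is the abundant cytosolic source of NADPH among these genes. It stood at 1173, 974 and 1003 CPM in high iron, 887, 540 and 602 CPM in sufficient iron and 861, 747 and 634 CPM in low iron. High iron was above both other diets in every liver, with a log2 fold change of 0.63 ± 0.19 against sufficient iron (edgeR, adjusted p = 0.336) and 0.49 ± 0.19 against low iron (adjusted p = 0.420 by the same test). Pgd, the next NADPH-yielding step after G6pdx, stood at 78.1, 78.6 and 76.0 CPM in high iron, 68.9, 56.5 and 56.0 CPM in sufficient iron and 78.3, 55.8 and 57.0 CPM in low iron. Its log2 fold change against sufficient iron was 0.36 ± 0.14 (edgeR, adjusted p = 0.510), and low-iron replicate 1 read as high as the high-iron livers.

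The non-oxidative enzymes of the pentose phosphate pathway read high with both altered feeds. Tkt, transketolase, stood at 130, 147 and 123 CPM in high iron, 144, 126 and 122 CPM in low iron and 101, 112 and 104 CPM in sufficient iron. Both altered feeds lay above the sufficient diet, with log2 fold changes of 0.34 ± 0.11 for high iron (edgeR, adjusted p = 0.418) and 0.31 ± 0.11 for low iron (edgeR, adjusted p = 0.446). Taldo1, transaldolase, stood at 84.6, 99.0 and 85.3 CPM in high iron, 116, 83.4 and 85.5 CPM in low iron and 75.2, 74.2 and 76.7 CPM in sufficient iron. The low-iron log2 fold change of Taldo1 was 0.33 ± 0.14 (edgeR, adjusted p = 0.446), and 0.15 without low-iron replicate 1. Among 11 other NADPH-linked enzymes, including Idh1 and the folate enzymes, 0 were called in any pairwise comparison, and the median for high against sufficient iron was -0.01.

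**Figure D2:**
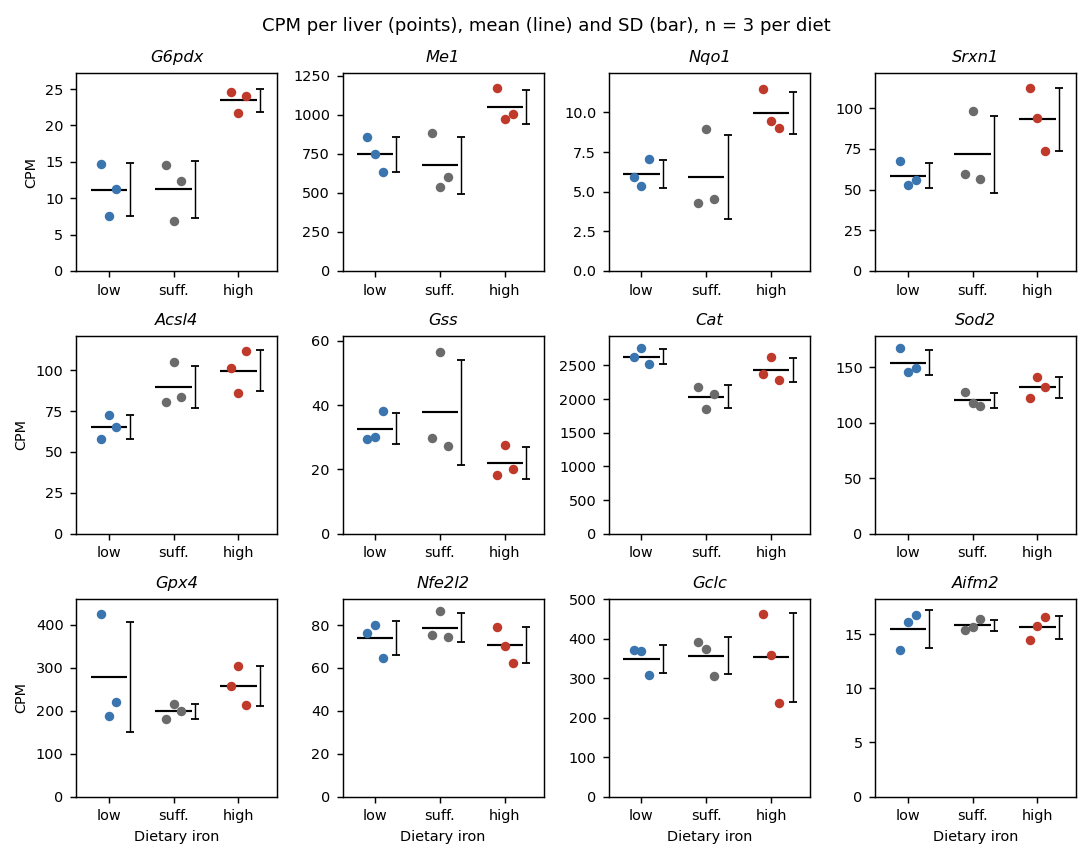
Each panel shows 1 gene, with CPM on the vertical axis from 0 and dietary iron on the horizontal axis; points are single livers, lines the means and bars the SD of 3 livers. G6pdx reads 21.7 to 24.5 CPM in high iron and at most 14.7 CPM elsewhere, Acsl4 is lowest in low iron, and Nfe2l2, Gclc and Aifm2 overlap between the diets.

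Genes of quinone, carbonyl and epoxide metabolism had positive log2 fold changes for high against sufficient iron in 6 of 6 cases. Of these, 1 had an unadjusted p under 0.05, and 4.16% of all genes were higher at that level. Nqo1, the quinone reductase used widely as a readout of NRF2, stood at 11.5, 9.44 and 9.03 CPM in high iron, 4.26, 8.95 and 4.53 CPM in sufficient iron and 5.93, 5.34 and 7.05 CPM in low iron. High iron was above both other diets in all livers, though sufficient-iron replicate 6 read just below the lowest of them. The log2 fold change was 0.75 ± 0.26 against sufficient iron (edgeR, adjusted p = 0.441) and 0.71 ± 0.27 against low iron (edgeR, adjusted p = 0.399). Without sufficient-iron replicate 6 the former was 1.18 (adjusted p = 0.0646) and the 3-diet test called Nqo1. Cbr3, a carbonyl reductase induced through NRF2 in other settings, was near the limit of measurement. It stood at 1.74, 0.881 and 0.694 CPM in high iron, 0.437, 1.38 and 0.386 CPM in sufficient iron and 0.312, 0.439 and 0.529 CPM in low iron. High iron lay above low iron without overlap (log2 fold change 1.33 ± 0.57, edgeR, adjusted p = 0.482; 0.84 without high-iron replicate 4), and sufficient iron spanned both. The carbonyl reductase gene Cbr1 (29.3 to 58.7 CPM), the aldehyde oxidase gene Aox1 (56.5 to 98.6 CPM), the epoxide hydrolase gene Ephx1 (179 to 337 CPM) and Ugdh (132 to 239 CPM), whose product makes UDP-glucuronic acid, each had both their highest and lowest liver among the sufficient-iron livers. In each the highest was replicate 6 and the lowest replicate 10, so the sufficient diet enclosed the others. High iron lay above low iron without overlap in Ugdh, at 195 to 213 CPM against 157 to 192 CPM.

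The 2 remaining NRF2 targets did not separate the diets. Osgin1, an oxidative stress-induced growth inhibitor, ranged from 46.2 to 112 CPM in low iron, from 63.55 to 124.5 CPM in sufficient iron and from 46.9 to 93.0 CPM in high iron. Htatip2, an oxidoreductase, ranged from 21.8 to 46.5 CPM over the 9 livers with overlap. Beyond the members, a list of 33 tested NRF2 targets took in the glutathione transferases and Abcc transporters left out of the members. For high against sufficient iron 13 of the 33 had an unadjusted p under 0.05, all 13 higher, beside 9.28% of all genes (4.16% higher). Only 1 of them was called, and the median was 0.24, beside -0.01 over all genes. Low against sufficient iron shares the same sufficient-iron livers. There the list had 11 genes at that level (9 higher and 2 lower), beside 11.2% of all genes (5.79% higher and 5.41% lower). Of the list 0 were called there, and the median was 0.23. The gene called for high iron, Gsta2, an alpha-class glutathione transferase, rose from 3.35, 4.24 and 2.59 CPM in sufficient iron to 9.66, 11.4 and 7.05 CPM in high iron, with 5.54, 5.93 and 5.32 CPM in low iron (log2 fold change against sufficient iron 1.47, edgeR, adjusted p = 0.0341). Leaving out any 1 of 6 livers ended the call: replicates 5 and 9 of low iron, 2 and 10 of sufficient iron, and 4 and 8 of high iron. The adjusted p ranged up to 0.222 over the alternatives. Gstm1, a mu-class transferase, stood at 2642, 3913 and 2418 CPM in high iron and 956, 1163 and 935 CPM in sufficient iron (log2 fold change 1.56, edgeR, adjusted p = 0.0898). In low iron Gstm1 stood at 2388, 1062 and 1142 CPM, so that low-iron replicate 1 read close to the high-iron livers. Abcc3, a conjugate exporter, stood at 279, 310 and 303 CPM in high iron, 163, 211 and 167 CPM in sufficient iron and 191, 213 and 214 CPM in low iron (log2 fold change for high against sufficient iron 0.72, edgeR, adjusted p = 0.0580). Reads that align to several transferase genes were not counted, so levels within these families are uncertain.

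For high against low iron 11 of the 33 targets had an unadjusted p under 0.05, 8 higher and 3 lower, beside 9.65% of all genes. Of the targets 2 were called, both higher. Abcc4, another exporter, rose from 1.64, 3.00 and 2.11 CPM to 9.33, 6.35 and 9.56 CPM (log2 fold change 1.86, edgeR, adjusted p = 0.0313), and Gstm4 from 68.9, 64.2 and 59.9 CPM to 120, 125 and 91.2 CPM (0.80, adjusted p = 0.0339). Leaving out high-iron replicate 4 or 8, or low-iron replicate 5 or 9, ended both calls, and for Abcc4 so did leaving out high-iron replicate 12. Over the alternatives the adjusted p ranged up to 0.132 for Abcc4 and 0.161 for Gstm4. Lower in high iron, though not called, was Gstm2, a mu-class transferase gene, at 46.6, 53.6 and 46.9 CPM against 135, 72.1 and 88.0 CPM in low iron (log2 fold change -1.0, edgeR, adjusted p = 0.0739). Hmox1, the haem oxygenase gene that both NRF2 and BACH1 bind, stood at 18.4, 19.6 and 26.4 CPM in high iron, 20.2, 25.9 and 25.9 CPM in sufficient iron and 18.9, 15.1 and 20.6 CPM in low iron, with overlap.

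The superoxide dismutases, which turn superoxide into peroxide, were both higher in low iron than in sufficient iron without overlap, as were 8.81% of all genes. Sod2, the mitochondrial manganese enzyme, stood at 167, 146 and 149 CPM in low iron, 128, 118 and 115 CPM in sufficient iron and 122, 141 and 132 CPM in high iron. Low iron was above both other diets in every liver, and the log2 fold change against sufficient iron was 0.36 ± 0.11 (edgeR, adjusted p = 0.446). Sod1, the cytosolic copper-zinc enzyme, stood at 920, 562 and 605 CPM in low iron, 497, 422 and 529 CPM in sufficient iron and 589, 738 and 492 CPM in high iron. Low-iron replicate 1 was far above the other low-iron livers, and the log2 fold change of 0.53 ± 0.21 (edgeR, adjusted p = 0.446) was 0.26 without it.

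Catalase and the peroxidases remove the peroxide that dismutases make. Of these 9 genes 6 lay above the sufficient-iron livers without overlap in low iron, beside 8.81% of all genes. At an unadjusted p under 0.05, 3 of the 9 were higher, beside 5.79% of all genes. Cat, peroxisomal catalase and a haem enzyme, stood at 2621, 2751 and 2520 CPM in low iron, 2185, 1851 and 2073 CPM in sufficient iron and 2373, 2626 and 2288 CPM in high iron. Both altered feeds lay above the sufficient diet. The log2 fold change was 0.37 ± 0.12 in low iron (edgeR, adjusted p = 0.446), and it lay between 0.301 and 0.425 in all 20 alternatives tried. Prdx5, a peroxiredoxin of mitochondria and peroxisomes, stood at 193, 117 and 118 CPM in low iron, 105, 76.4 and 105 CPM in sufficient iron and 116, 140 and 96.0 CPM in high iron. Its low-iron log2 fold change of 0.57 ± 0.22 (edgeR, adjusted p = 0.446) was 0.29 without low-iron replicate 1. Prdx6, which can reduce oxidised phospholipids, stood at 416, 448 and 459 CPM in low iron, 364, 280 and 397 CPM in sufficient iron and 354, 419 and 361 CPM in high iron. The low-iron livers were all above the sufficient-iron livers, and the log2 fold change was 0.35 ± 0.14 (edgeR, adjusted p = 0.446), or 0.21 without sufficient-iron replicate 6.

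Gpx4, the selenoenzyme that reduces lipid hydroperoxides and holds back ferroptosis, stood at 425, 189 and 221 CPM in low iron, 181, 215 and 199 CPM in sufficient iron and 257, 304 and 213 CPM in high iron. Low-iron replicate 1 stood far above every other liver, and the diets overlapped. The log2 fold change was 0.49 ± 0.27 for low iron (edgeR, adjusted p = 0.479), 0.03 without that library, and 0.38 ± 0.27 for high iron (edgeR, adjusted p = 0.662), 0.24 without high-iron replicate 8. The other peroxidases were Gpx1 (558 to 831 CPM over the 9 livers), Gpx3 (1.94 to 5.85 CPM), Prdx1 (597 to 769 CPM), Prdx2 (64.8 to 108 CPM) and Prdx3 (111 to 137 CPM). Prdx1, Prdx2 and Prdx3 were among the 6 that lay above the sufficient-iron livers in low iron. Summed over the 9 genes, catalase and peroxidases took 5310, 5220 and 5000 CPM in low iron, 4460, 3830 and 4200 CPM in sufficient iron and 4770, 5310 and 4450 CPM in high iron. In further lists, 0 of 23 other antioxidant enzymes and metallothioneins and 0 of 16 selenoprotein genes were called in any pairwise comparison.

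**Figure D3:**
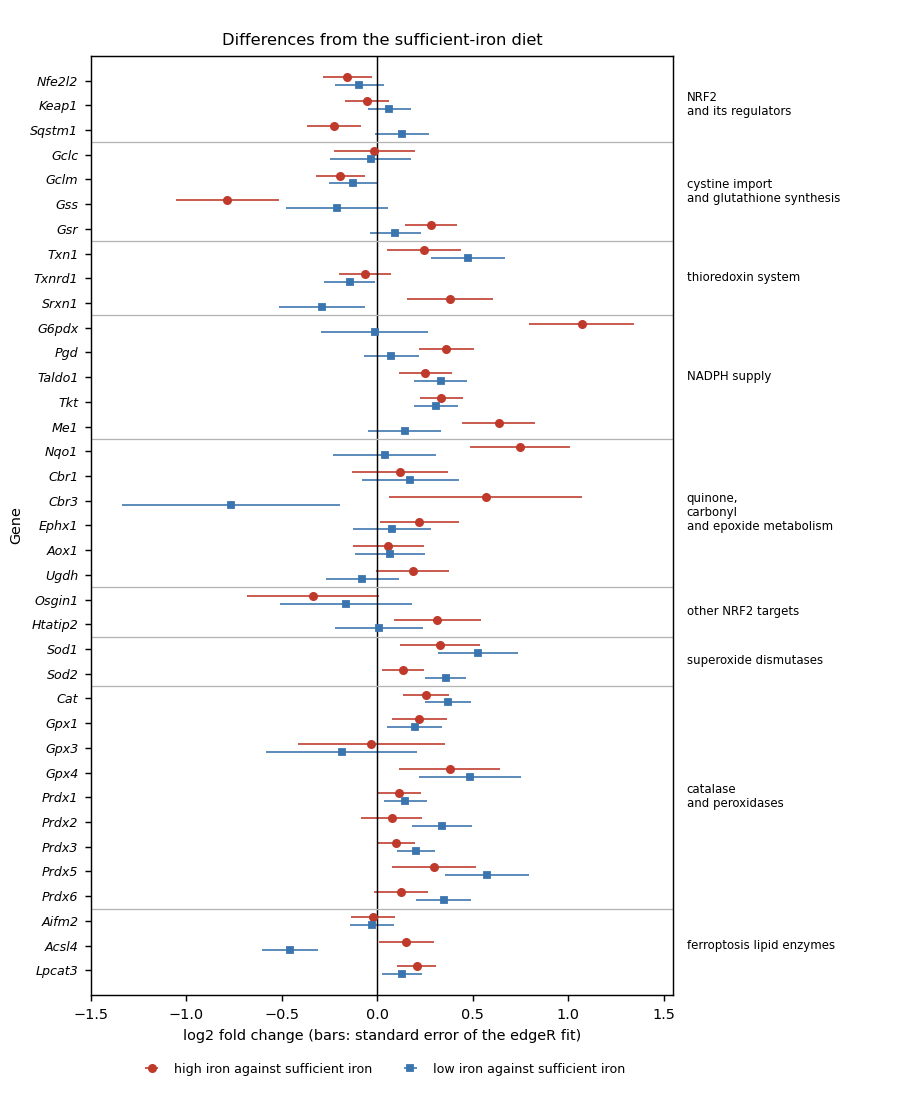
Log2 fold changes (horizontal axis) of the 37 tested members by role, with red circles for high iron and blue squares for low iron against the sufficient diet. Bars are standard errors worked out from the edgeR F-test. All 5 genes listed under NADPH supply lie right of 0 for high iron, as do 8 of 9 catalase and peroxidase genes for low iron. NRF2, its regulators and the glutathione synthesis genes lie on both sides of 0 or left of it.

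Among the lipid enzymes of ferroptosis, Acsl4 gave the lowest p of any member in a pairwise comparison. ACSL4 loads polyunsaturated fatty acids for insertion into phospholipids, which makes membranes prone to peroxidation. Acsl4 stood at 58.0, 72.8 and 65.1 CPM in low iron, 80.8, 105 and 83.7 CPM in sufficient iron and 102, 86.4 and 112 CPM in high iron. Low iron was below both other diets in every liver, while high and sufficient iron overlapped. The log2 fold change was 0.61 ± 0.14 for high against low iron (edgeR, adjusted p = 0.111), -0.46 ± 0.14 for low against sufficient iron (edgeR, adjusted p = 0.446) and 0.15 ± 0.14 for high against sufficient iron. Its slope with dietary iron was 0.23 on the log2 scale per 10-fold of iron content (edgeR, adjusted p = 0.170). Lpcat3, which inserts those fatty acids, ranged from 112 to 114 CPM in high iron, wholly above the 90.2 to 108 CPM of sufficient iron, and from 103 to 114 CPM in low iron. Aifm2 encodes FSP1, which protects membranes by reducing coenzyme Q apart from GPX4. It stood at 13.5, 16.1 and 16.8 CPM in low iron, 15.4, 15.7 and 16.4 CPM in sufficient iron and 14.5, 15.8 and 16.6 CPM in high iron, and the 3 diets overlapped.

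Of 32 other ferroptosis genes 0 were called in the pairwise comparisons and 1, Tfrc, in the trend (edgeR, adjusted p = 0.0484). Tfrc, which also had the lowest p for high against low iron, is the transferrin receptor gene, whose messenger RNA is stabilised when iron is scarce. Tfrc stood at 47.5, 110 and 52.2 CPM in low iron, 37.0, 30.8 and 12.8 CPM in sufficient iron and 18.2, 10.7 and 12.1 CPM in high iron (log2 fold change for high against low iron -2.35, edgeR, adjusted p = 0.0506). Markers of other liver cells moved with the diets as well. The 11 Kupffer cell and macrophage markers were all negative for low against sufficient iron, 8 at an unadjusted p under 0.05 and 0 called. At that level 5.41% of all genes were lower. All 11 were negative for high against sufficient iron as well, with a median of -0.46 and 0 at that level. These markers summed to 131, 278 and 306 CPM in low, 479, 370 and 302 CPM in sufficient and 256, 265 and 323 CPM in high iron. The 8 sinusoidal endothelium and 6 stellate cell markers were also all negative for low against sufficient iron, with 0 called. The 5 cholangiocyte markers summed to 27.9 to 36.5 CPM in low, 40.1 to 72.6 CPM in sufficient and 33.1 to 70.9 CPM in high iron. Alas2, a haem synthesis gene of erythroid cells, was called for high against sufficient and for high against low iron, at 28.1 to 38.4 CPM in high, 62.3 to 81.5 CPM in sufficient and 86.9 to 126 CPM in low iron. No measured marker of the Kupffer or cholangiocyte list was at 0 in any library. The haemoglobin genes were at 0 in all, which does not show absence, since reads shared by several genes were not counted. The part of these cell types in the differences of Acsl4 and the other members was not tested.

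Transcript length moved with the values of some members in both comparisons with the sufficient diet. An offset for transcript length, added after the data were seen, lowered the log2 fold changes of members with short transcripts. With it, Sod1 (641 bases) went from 0.53 to 0.11, Gpx4 (995 bases) from 0.49 to 0.14, Txn1 (1051 bases) from 0.47 to 0.18 and Taldo1 (1229 bases) from 0.33 to 0.10. Values of longer transcripts moved less or the other way, as Cat (2613 bases) went from 0.37 to 0.36, Sod2 (5861 bases) from 0.36 to 0.49 and Acsl4 (5280 bases) from -0.46 to -0.35. The median of the catalase and peroxidase genes for low against sufficient iron went from 0.34 to 0.14, and that of all 37 members from 0.08 to 0.02. For high against sufficient iron the median of all 37 members went from 0.18 to 0.11, with Sod1 going from 0.33 to 0.03, Gpx4 from 0.38 to 0.17, Txn1 from 0.24 to 0.06, Taldo1 from 0.25 to 0.10 and Gpx1 from 0.22 to 0.05. The median of the NADPH supply genes in that comparison went from 0.36 to 0.35, and G6pdx stood at 1.07 both with and without the offset. The sign changed with the offset in 4, 6 and 5 of the 37 members for high against sufficient, low against sufficient and high against low iron. Under this offset 7 members differed between high and sufficient iron at an unadjusted p under 0.05 (9.43% of all genes) and 6 between low and sufficient iron (9.59%). The offset left 0 members called in both, and it called 1 member, Acsl4, for high against low iron (edgeR, log2 fold change 0.57, adjusted p = 0.046, beside 0.61 and 0.111 without the offset).

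**Figure D4:**
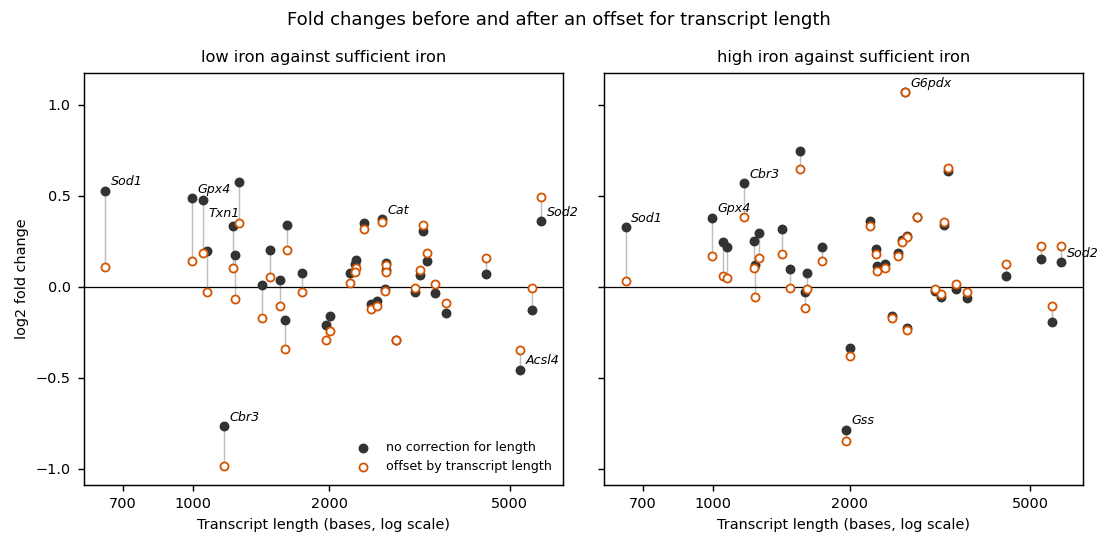
Transcript length in bases (horizontal axis, log scale) against the log2 fold change of the 37 tested members, for low iron (left) and high iron (right) against the sufficient diet; filled points are without and open points with the offset for transcript length, joined by a line for each gene. Sod1 and Gpx4 drop towards 0 with the offset in both panels and Txn1 in low iron, while Cat and Sod2 in low iron and G6pdx in high iron keep their side.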

How the data were processed

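Liver RNA from 9 mice was sequenced, 1 library per mouse. The authors deposited whole-number read counts per gene symbol for each library, without normalization, per the values in the tables. The 5 category rows at the end of each table (reads outside genes, 13.4% to 25.9% of uniquely aligned reads, in several genes or in several places) stayed out of library sizes and tests, so reads of near-identical genes are missing. Per the submitters' processing notes, FastQC, mm10 and mm9 were used in some role. The aligner, the counting tool and its strand setting were not given in the sources used here, so overlapping and antisense genes cannot be told apart.

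The fit used edgeR 4.0.16 in R 4.3.3 with filterByExpr, TMM scaling and robust quasi-likelihood F-tests, diet as the only term and all 9 libraries, with Benjamini-Hochberg adjustment over 13020 genes (threshold 0.05). CPM values use scaled library sizes, and log2 CPM a prior count of 2. Standard errors (SE) were worked out from the F-test, as the size of the log2 fold change over the square root of F. The trend used log10 of iron content. The fit was tested on simulated data. Alternatives were DESeq2 1.42.0, limma 3.58.1 (voom), other scalings and filters, and libraries left out. Lengths are of the longest GENCODE transcript with a RefSeq match.

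The members and lists were chosen with earlier results of these data known. Every library's value is given for members at an unadjusted p under 0.05 in a pairwise comparison and for 8 further or overlapping genes (Nfe2l2, Keap1, Nqo1, Gclc, Slc7a11, Gpx4, Aifm2, Acsl4), other members by range. From each other list up to 4 genes per comparison with the lowest p could be named, besides Hmox1, Tfrc, Gsta2, Gstm1 and Abcc3; Alas2 was named after its values were seen.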

Additional observations from a re-analysis of the deposited data

How the results depend on the processing

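Over up to 20 alternatives per comparison, the log2 fold changes of the named genes kept their direction and their side of the threshold in 973 of the gene-by-alternative values, 42 passed the threshold, 26 lost it and 32 changed sign. Among the members followed through every alternative (those at an unadjusted p under 0.05 and 6 further or overlapping ones), changes of sign were in Nfe2l2, Keap1, Gclc, Nqo1 and Gpx4. Among the rest, the length offset changed the sign of Cbr1, Prdx2 and Prdx3 for high and of Cbr1, Ephx1, Htatip2 and Gpx1 for low against sufficient iron, and of Taldo1, Cbr1 and Aifm2 for high against low iron. The number of members called was 0 in limma-voom and in edgeR with all 9 libraries and other scalings or filters. For high against sufficient iron it was 1 with DESeq2 and 1 with quality weights. For low against sufficient iron it was 2 with DESeq2. For high against low iron it was 2 with DESeq2, 3 with quality weights, 1 with the length offset and 0 to 1 with single libraries left out, where the call came without sufficient-iron replicate 6. The 3-diet test gave 3 with DESeq2, 1 with quality weights and 0 to 1 with single libraries left out, and the trend 2, 2 and 0 to 1, the calls again without sufficient-iron replicate 6. The members' median was 0.0975 to 0.208 for high against sufficient iron with single libraries left out, lowest without sufficient-iron replicate 10. For low against sufficient iron it was 0.020 to 0.181, highest without sufficient-iron replicate 6, and for high against low iron it was 0.140 without low-iron replicate 1 and high-iron replicate 12 together; the spread between replicates was 0.0931. In these cases the cause was not tested.

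For high against sufficient iron, Gclc was 0.058 with quality weights, 0.200 without low-iron replicate 1 and high-iron replicate 12, 0.0125 with the length offset and -0.259 to 0.201 with single libraries left out. Keap1 was 0.0115 without that pair and -0.103 to 0.0136 with single libraries left out. For low against sufficient iron, Keap1 was -0.0221 with quality weights, -0.0234 without the pair and -0.0365 to 0.119 with single libraries left out. Gclc and Nqo1 were 0.0136 and -0.105 with the length offset, and -0.146 to 0.0429 and -0.142 to 0.471 with single libraries left out. For high against low iron, Gclc was -0.0388 with limma-voom, -0.00109 with the length offset and -0.226 to 0.242 with single libraries left out. Nfe2l2 was 0.0477 with quality weights, 0.0397 without the pair and -0.154 to 0.0265 with single libraries left out, and Keap1 was 0.0349 without the pair. Gpx4 was 0.160 with quality weights, 0.448 without the pair, 0.0322 with the length offset and -0.323 to 0.342 with single libraries left out.

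The number of genes called over the whole table was 28, 0, 66, 28 and 40 for high against sufficient, low against sufficient and high against low iron, the 3-diet test and the trend. DESeq2 gave 218, 105, 365, 413 and 313, quality weights 92, 2, 378, 230 and 294, the length offset 49, 0, 104, 49 and 70, and the pair left out 17, 1, 31, 15 and 3. Without a filter on low counts the first was 45 and the fourth 52. Single libraries left out gave 0 to 56, 0 to 1, 0 to 112, 0 to 68 and 0 to 96. No paired analysis was run, as no label names sets of mice and the title numbers do not repeat between diets. Whether mice of different diets shared a set is therefore unknown. Depth limits Slc7a11 (34 reads in all) and Cbr3 (4 to 60 reads per library).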
